A study of Mus musculus with 32 samples.

Results

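Among 32 lymphomas of Eµ-myc mice, the 8 tumours with the most Col3a1 RNA were set against the 8 with the least. Col3a1 encodes the chain of type III collagen, a fibre of connective tissue, and these groups go by the working names stroma-rich and stroma-poor. Here they are called Col3a1-high and Col3a1-low tumours, since they were chosen by the measured level of that gene and the labels name no such groups. Tumours 25, 30, 26, 32, 5, 13, 4 and 1 made up the Col3a1-high group, and tumours 12, 23, 22, 9, 8, 2, 15 and 18 the Col3a1-low group, in falling order of Col3a1. The other 16 of the 32 tumours lay between them.

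All 32 tumours carried the Eµ-myc transgene, where the immunoglobulin heavy chain enhancer switches on the oncogene Myc within B lineage cells. Total RNA of each tumour was read on 1 Affymetrix Mouse430_2 array. The labels give no strain, age, sex or treatment of the mice, and leave unsaid whether a mouse gave more than a single tumour. The RNA came from pieces of lymphoma or from dissociated lymphoma cells, and which of these applied to a given tumour cannot be told apart here. The part of this in any difference was not tested. Values are log2 expression values, with array medians between 5.72 and 5.80, and n = 8 tumours for each group throughout. Precision is limited by how many arrays there are.

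Stroma is the supporting tissue of an organ or tumour. Fibroblasts secrete its collagens and glycoproteins, enzymes cross-link and trim them, and blood vessels, fat cells and macrophages lie within it. A lymph node has its own stroma of reticular and follicular dendritic cells, which guide lymphocytes with chemokines. In RNA from a whole tumour, fewer cells of a type and less RNA per cell cannot be told apart.

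Col3a1 lay between 12.55 and 13.76 in the Col3a1-high tumours and between 9.06 and 10.86 in the Col3a1-low tumours. These values set the groups and carry no test. At the upper border tumour 1 was inside the group at 12.55 and tumour 19 outside it at 12.51, and at the lower border tumour 12 was inside at 10.86 and tumour 6 outside at 11.07. A second Col3a1 probe set followed the first over the 32 tumours (r = 0.98, a description, since both read the same RNA). Lum, which encodes the collagen-binding proteoglycan lumican and is the other stroma marker, ran from 7.13 over a median of 7.99 to 10.68 in Col3a1-high tumours, against 5.14, 6.80 and 8.54 in Col3a1-low tumours. The groups overlapped in Lum, 3 Col3a1-high tumours lying above the highest Col3a1-low tumour, and the difference of 1.56 ± 0.51 on the log2 scale (SE) did not pass the test (adjusted p = 0.191). Only 4 of the 8 Col3a1-high tumours were among the 8 highest by Lum, and 5 of the 8 Col3a1-low tumours among the 8 lowest.

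**Figure D1:**
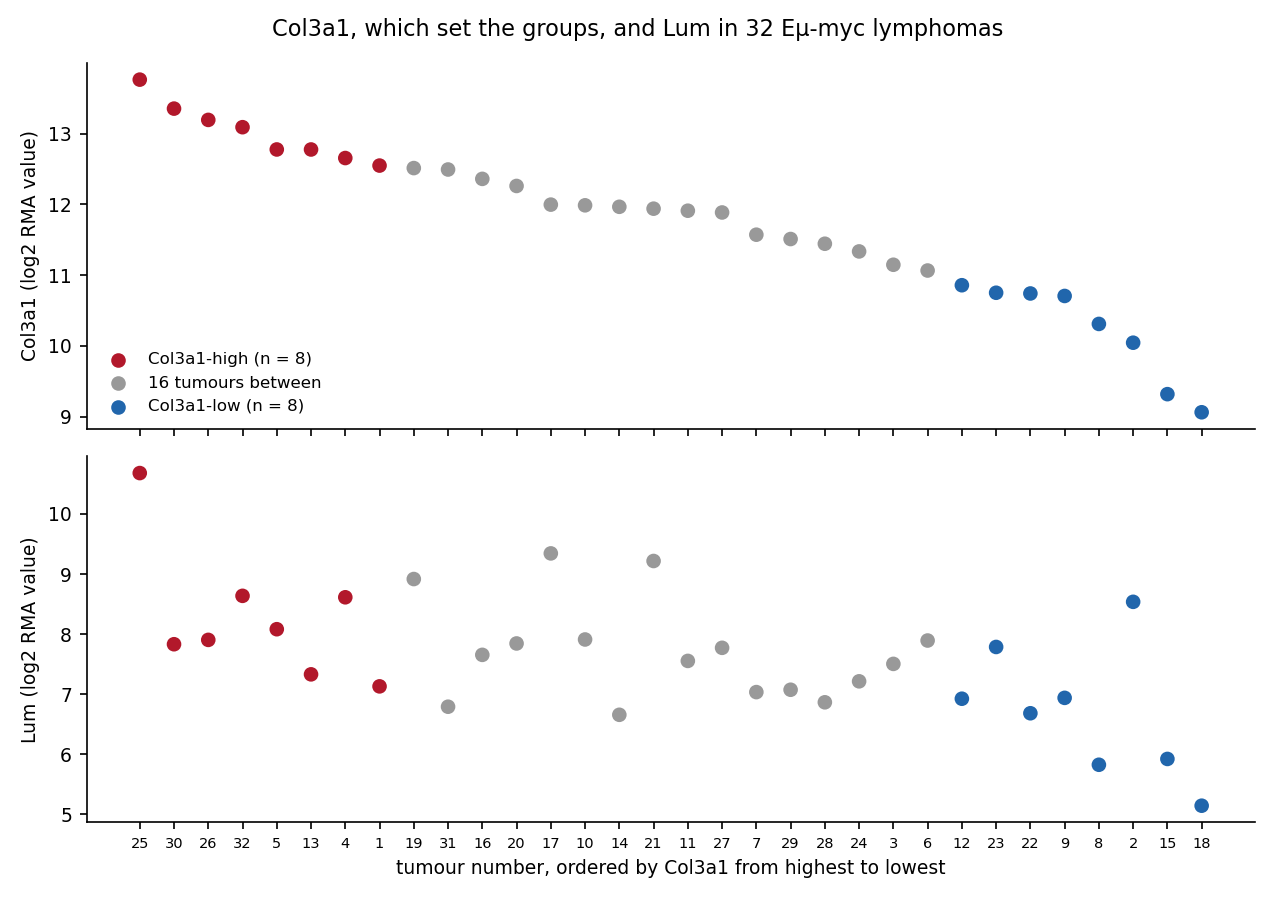
Col3a1 (top) and Lum (bottom) as log2 RMA values (vertical axes) in each of the 32 tumours, ordered by Col3a1 from left to right, with the 8 Col3a1-high tumours in red, the 16 between in grey and the 8 Col3a1-low tumours in blue. Col3a1 falls without a wide gap at either border (0.035 at the upper, 0.21 at the lower), and Lum overlaps between the groups, with tumour 25 highest at 10.68 and tumour 2 at 8.54 among the Col3a1-low tumours.

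Across the array, 60 of 11227 tested genes were higher in Col3a1-high tumours (0.534%) and 26 were lower (0.232%), by limma's moderated test with a Benjamini-Hochberg adjusted p under 0.05. Col3a1 itself was left out. Since Col3a1 chose the tumours, a low p here describes an association with Col3a1 at its extremes. In 40 genes all 8 Col3a1-high tumours lay above all 8 Col3a1-low tumours (0.356% of those tested), and in 9 genes all 8 lay below (0.0802%). The median difference of all tested genes was 0.02. With the arrays shifted to equal reference genes, 49 genes were higher and 43 lower, and with quantile normalization repeated, 61 and 43. The counts also moved with single tumours. They were 34 higher and 10 lower without tumour 8, 37 and 13 without tumour 15, 109 and 78 without tumour 23, and 58 genes were lower without tumour 22. Without tumours 4, 26 or 18, 17 genes were lower, without tumour 5 there were 15, and without tumour 13 there were 12. In all 16 fits that left out 1 tumour each, 34 of the 60 higher and 10 of the 26 lower genes kept their call.

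Sfrp2 had the largest difference of the higher genes. Sfrp2, a secreted inhibitor of Wnt signalling made by fibroblasts, ran from 7.65 over a median of 8.62 to 9.76 in Col3a1-high tumours and from 4.06 over 4.45 to 5.65 in Col3a1-low tumours. The groups did not overlap, the highest Col3a1-low tumour being tumour 9. The difference was 4.09 ± 0.29 (SE, adjusted p = 1.46e-06). Mfap5, a glycoprotein of the microfibrils that carry elastin, ran from 6.94 over 7.29 to 8.74 in Col3a1-high tumours, against 3.90, 4.97 and 5.63 in Col3a1-low tumours. These groups did not overlap either, and the difference was 2.62 ± 0.29 (adjusted p = 0.000468). All Col3a1-low values of Sfrp2 and Mfap5 lay below 5.78, the mean under which probe sets were taken as dim, so no fold is given for them.

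Fibre-forming collagens were among the higher genes. Col1a1, a chain of type I collagen, ran from 8.62 over 9.59 to 11.03 in Col3a1-high tumours and from 6.97 over 7.24 to 8.29 in Col3a1-low tumours, a difference of 2.35 ± 0.33 (SE) and a 5.11-fold change (adjusted p = 0.00272). Its partner chain Col1a2 ran from 11.05 over 11.71 to 13.25, against 9.45, 9.84 and 10.68 in Col3a1-low tumours, with a difference of 1.99 ± 0.29 (adjusted p = 0.00341). Every Col3a1-high tumour was above every Col3a1-low tumour in both chains. The chains of type V collagen, which starts the assembly of type I fibrils, behaved the same way: Col5a1 was 7.44, 7.71 and 8.30 (lowest, median and highest) in Col3a1-high tumours and 6.33, 6.77 and 6.93 in Col3a1-low tumours, a difference of 1.05 ± 0.12 (adjusted p = 0.000468). Col5a2 differed by 1.94 ± 0.31 (adjusted p = 0.00632). These 4 were the members of the 12 fibrillar and fibril-associated collagens that passed the test, and 0 were lower. All 12 differences were positive, with a median of 0.98 against 0.02 for all tested genes. Col8a1 (1.63) and Col6a3 (1.25) lay just outside the threshold, both with an adjusted p of 0.0523.

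The promoter of Col1a2 is shown because this collagen chain separated the groups completely, beside the promoters of H2-Eb1 and H2-DMb2, genes of antigen presentation that ran the other way and are described further on. Each window holds 250 bases before and 50 after the start of the gene, from RefSeq on build GRCm38.p6, written 5′ to 3′ on the gene's strand. Capitals mark CCAAT or its other strand ATTGG, a motif common to many promoters. Col1a2 lies at chr6:4505368-4505667 (plus strand), H2-Eb1 at chr17:34305617-34305916 (plus strand) and H2-DMb2 at chr17:34144999-34145298 (plus strand).
Col1a2: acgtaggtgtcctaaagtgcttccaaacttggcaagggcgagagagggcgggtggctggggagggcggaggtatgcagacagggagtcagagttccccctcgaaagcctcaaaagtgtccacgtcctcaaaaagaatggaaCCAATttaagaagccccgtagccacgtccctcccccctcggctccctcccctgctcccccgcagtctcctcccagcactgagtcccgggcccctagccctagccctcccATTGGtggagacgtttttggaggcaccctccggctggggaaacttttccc
H2-Eb1: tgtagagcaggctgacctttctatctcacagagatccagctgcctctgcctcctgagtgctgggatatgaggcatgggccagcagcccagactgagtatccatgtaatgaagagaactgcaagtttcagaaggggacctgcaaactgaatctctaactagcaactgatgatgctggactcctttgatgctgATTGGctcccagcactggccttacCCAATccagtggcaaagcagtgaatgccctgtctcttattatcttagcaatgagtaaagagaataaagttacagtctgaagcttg
H2-DMb2: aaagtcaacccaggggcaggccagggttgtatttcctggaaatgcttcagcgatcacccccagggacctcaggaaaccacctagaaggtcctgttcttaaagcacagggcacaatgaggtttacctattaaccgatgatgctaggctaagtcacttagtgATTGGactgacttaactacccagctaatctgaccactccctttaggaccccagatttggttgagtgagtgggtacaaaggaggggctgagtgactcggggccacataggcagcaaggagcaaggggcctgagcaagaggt

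A window was found for 43 of the 60 higher genes and 22 of the 26 lower genes. CCAAT on either strand was in 19 of the 43 (44.2%) and in 9 of the 22 (40.9%), against 41.1% of the 27025 genes with a window of this length and 42.6% of the 9115 tested genes with one. TATAAA on either strand, a motif that does not overlap CCAAT in these letters, was in 10 of the 43 (23.3%) and 3 of the 22 (13.6%), against 15.7% of all genes and 8.84% of the tested genes. These shares carry no test. A match is a description of letters in the window and was not set against binding of any factor.

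Of the 18 elastic fibre and matrix glycoprotein genes, 8 were higher and 0 lower, and the median difference was 1.24. Besides Mfap5 they were Postn, the adhesion protein periostin (difference 1.97 ± 0.35 (SE), adjusted p = 0.0144), Fbln2, the fibulin of elastic fibres and vessel walls (1.87 ± 0.23, adjusted p = 0.00109), Efemp1, another fibulin (1.86 ± 0.30, adjusted p = 0.0066), the fibronectin gene Fn1 (1.67 ± 0.26, adjusted p = 0.0046), Dpt, the dermis protein dermatopontin (1.61 ± 0.35, adjusted p = 0.0436), Sparc, a collagen-binding protein (1.34 ± 0.26, adjusted p = 0.0197), and the tenascin gene Tnxb (1.23 ± 0.22, adjusted p = 0.0133). Fbln2 separated the groups widely, with 7.35, 7.92 and 9.18 (lowest, median and highest) in Col3a1-high tumours and 6.03, 6.19 and 6.46 in Col3a1-low tumours. Dpt kept its call in only 4 of the 16 fits without 1 tumour. Tnc, a tenascin of wounds and of tumour stroma, had a negative difference (-0.86, adjusted p = 0.291). Among 17 genes of collagen processing and matrix turnover 2 were higher, 0 lower and the median was 0.69. Timp1, an inhibitor of matrix-cutting proteases, was 6.86, 7.18 and 8.55 in Col3a1-high tumours and 5.34, 5.84 and 6.50 in Col3a1-low tumours, a difference of 1.56 ± 0.23 without overlap (adjusted p = 0.00341). Loxl1, which cross-links elastin, also differed by 1.56 (adjusted p = 0.00632). Mmp3, a protease of matrix proteins, had a difference of 2.01 that did not pass (adjusted p = 0.0731); in tumour 2 of the Col3a1-low group it reached 9.65, above every Col3a1-high tumour.

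Basement membrane genes, whose products line vessels and surround fat and muscle cells, had 1 higher and 0 lower of 13. All 13 differences were positive, with a median of 0.69. Col18a1, the source of endostatin, was 7.02, 7.27 and 7.82 in Col3a1-high tumours and 6.20, 6.72 and 6.97 in Col3a1-low tumours, a difference of 0.71 ± 0.14 (SE) without overlap (adjusted p = 0.0222). Lamb2 (0.85, adjusted p = 0.0613) and Col15a1 (0.81, adjusted p = 0.0785) did not pass. Small leucine-rich proteoglycans, which coat collagen fibrils, had 0 called of 6 tested and a median of 0.83. Ogn, the gene of osteoglycin, kept the groups apart, with 5.85, 6.42 and 8.92 in Col3a1-high tumours against 4.44, 5.10 and 5.83 in Col3a1-low tumours, with a difference that missed the threshold (1.64 ± 0.37, adjusted p = 0.0523). The Col3a1-low median of Ogn was under the dim level of 5.78. Dcn, the gene of decorin, was 8.68, 9.99 and 11.90 in Col3a1-high tumours and 9.001, 9.74 and 11.81 in Col3a1-low tumours (0.33 ± 0.47, adjusted p = 0.86).

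Fibroblast markers were tested as a list of their own. Of 11 genes of fibroblast identity 1 was higher and 0 lower, with a median of 0.55. Pi16, a marker of fibroblasts around vessels, was 6.39, 7.15 and 7.78 in Col3a1-high tumours and 5.73, 6.26 and 6.59 in Col3a1-low tumours (0.97 ± 0.18, SE, adjusted p = 0.0179). The intermediate filament gene Vim, which lymphoid cells also express, did not pass (0.87, adjusted p = 0.0953). Cd248, the gene of endosialin on fibroblasts and pericytes, was among the 15 higher genes with the largest moderated t: 7.13, 7.56 and 7.77 in Col3a1-high tumours and 6.36, 6.68 and 6.93 in Col3a1-low tumours, without overlap (0.82 ± 0.10, adjusted p = 0.000802). None of the 10 smooth muscle and pericyte genes was called in limma's test (median -0.19), and Acta2, the actin of smooth muscle and of activated fibroblasts, had a difference of -0.62 (adjusted p = 0.609).

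**Figure D2:**
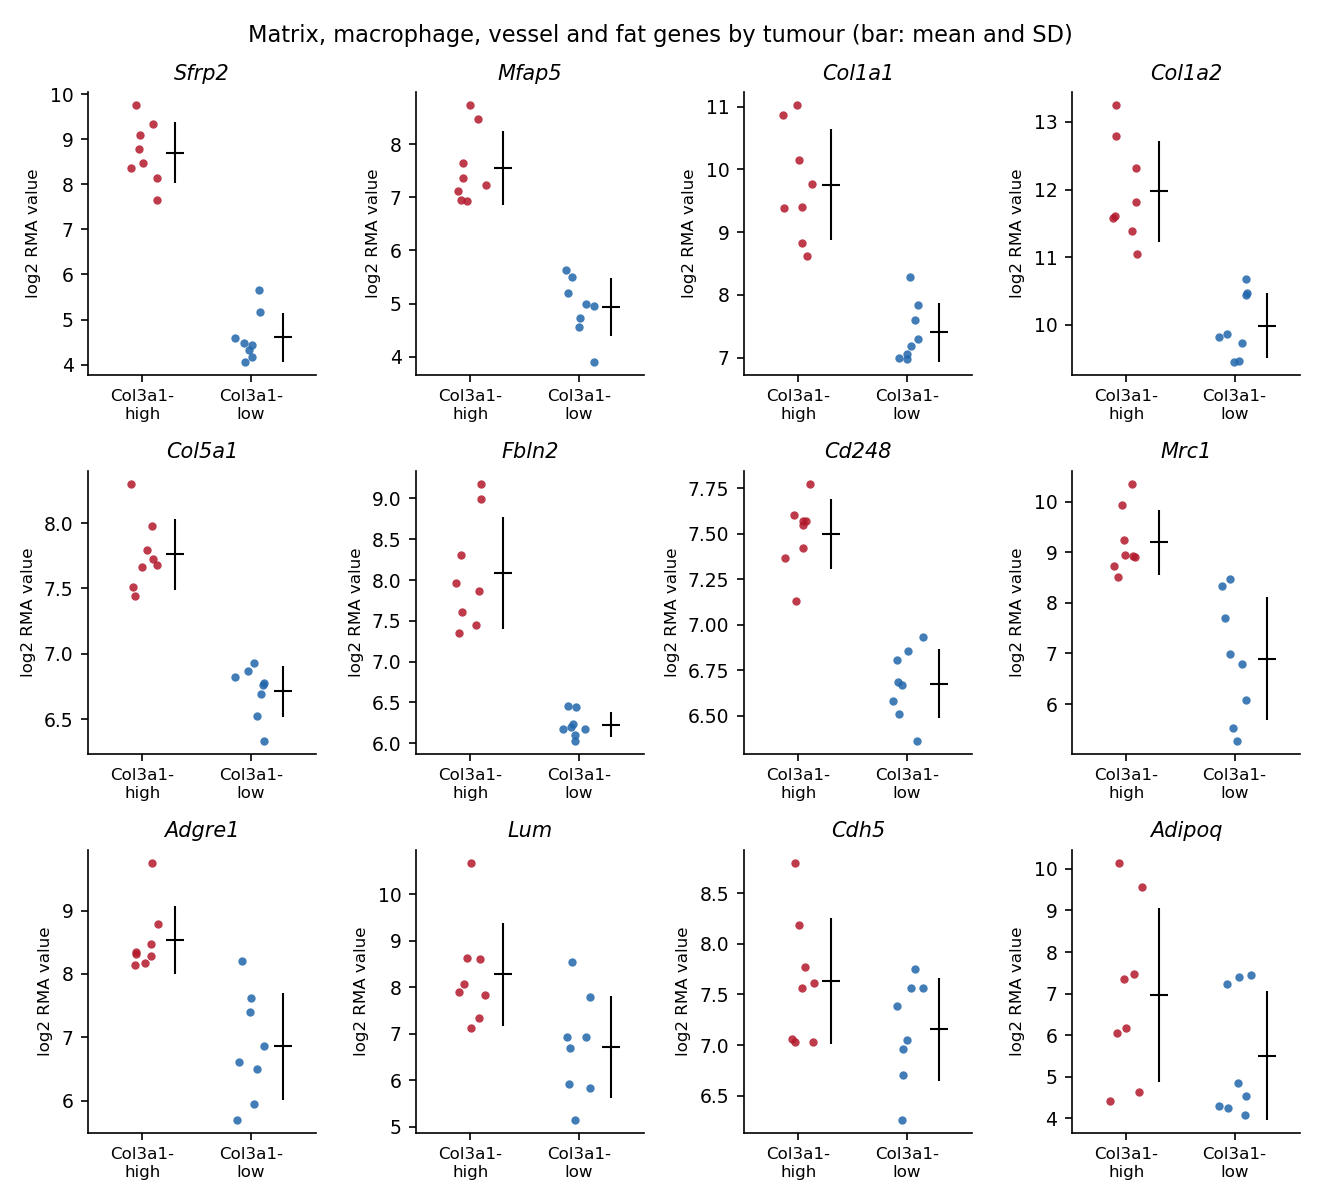
Log2 RMA values (vertical axis, not starting at 0) of 12 genes in each Col3a1-high tumour (red, left) and each Col3a1-low tumour (blue, right), with the mean and SD of each group of 8 as a black bar. Sfrp2, Mfap5, Col1a1, Col1a2, Col5a1, Fbln2, Cd248 and Mrc1 have no overlap between the groups, while Adgre1, Lum, Cdh5 and Adipoq overlap.

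The stroma particular to lymphoid organs held no called gene in limma's comparison of 8 with 8 tumours. Of 12 tested lymph node stroma genes 0 were called and the median difference was -0.30. The 3 with the largest differences were all negative: Clu, secreted by follicular dendritic cells among others (-2.08, adjusted p = 0.238), the follicle chemokine gene Cxcl13 (-2.02, adjusted p = 0.369) and Mfge8, which binds dying cells (-1.25, adjusted p = 0.277). Clu ran from 7.24 over 9.20 to 10.32 in Col3a1-high tumours and from 8.02 over 11.87 to 12.75 in Col3a1-low tumours, so the groups overlapped. The groups also overlapped in Cxcl13, with 4.33, 7.16 and 9.59 in Col3a1-high tumours, against 6.26, 9.57 and 11.004 in Col3a1-low tumours. Between the 5 highest and 5 lowest tumours Clu (-3.53, adjusted p = 0.0158) and Mfge8 (-2.23, adjusted p = 0.0116) passed limma's test as lower, and both passed as a falling slope over all 32 tumours (adjusted p = 0.0216 and 0.0365). With tumours ranked by Lum their differences were 0.32 and 0.03, of the opposite sign (adjusted p = 0.913 and 0.991).

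Calls of vessel genes depended on the fit. Of 19 blood vessel endothelium genes 0 were called in the comparison of 8 with 8 tumours, 17 had a positive difference and the median was 0.39. Emcn, an endothelial surface sialoprotein, was 5.68, 6.44 and 7.90 in Col3a1-high tumours and 4.87, 5.65 and 6.23 in Col3a1-low tumours (0.98 ± 0.30, SE, adjusted p = 0.151). Tek, the angiopoietin receptor, differed by 0.83 (adjusted p = 0.0731), and the vascular cadherin gene Cdh5 by 0.48 (adjusted p = 0.533). Tek passed as higher with high salivary Bpifa2 (adjusted p = 0.0253), a measure of RNA degradation (adjusted p = 0.0236) or high Xist (adjusted p = 0.0253) as a covariate and with tumours ranked by the mean of the Col3a1 probe sets (adjusted p = 0.0422). As a slope over all 32 tumours Tek (adjusted p = 0.000483) and Emcn (adjusted p = 0.00892) rose with Col3a1. High endothelial venule genes, of the vessels through which lymphocytes enter a node, had 0 of 6 called (median -0.24), with Glycam1, a ligand of L-selectin there, at -1.40 (adjusted p = 0.548). Lymphatic endothelium genes had 0 of 6 called (median -0.05). In that list Lyve1, the hyaluronan receptor, had a difference of -1.71 (adjusted p = 0.516) and Stab1, a scavenger receptor that macrophages share, one of 0.81 (adjusted p = 0.0875). Stab1 passed with the measure of RNA degradation as a covariate (adjusted p = 0.0443) and as a slope over all 32 tumours (adjusted p = 0.00722).

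Fat cell genes were spread widely within both groups. Of 14 tested, 0 were called and 13 had a positive difference, with a median of 0.68. Fabp4, a fatty acid carrier of fat cells and capillaries, was 10.39, 11.35 and 12.78 in Col3a1-high tumours and 9.83, 10.05 and 10.66 in Col3a1-low tumours (1.27 ± 0.31, SE, adjusted p = 0.0713). The fatty acid receptor gene Cd36 differed by 1.20 ± 0.31 (adjusted p = 0.082). In limma's test both rose with Col3a1 as a slope over all 32 tumours (adjusted p = 0.0037 for Fabp4 and 0.00426 for Cd36). They also passed with the measure of RNA degradation as a covariate (adjusted p = 0.0476 and 0.0461), but not with tumours ranked by Lum (adjusted p = 0.562 and 0.522). The hormone gene Adipoq, made by fat cells alone, ran from 4.41 over 6.77 to 10.14 in Col3a1-high tumours and from 4.09 over 4.69 to 7.44 in Col3a1-low tumours (1.47 ± 0.85, adjusted p = 0.551), and Car3, an abundant carbonic anhydrase of fat and muscle, from 6.45 to 12.51 against 4.25 to 10.57 without a call (adjusted p = 0.493). The level of the list, its mean over the tested genes, ran from 7.09 over a median of 7.93 to 9.22 in Col3a1-high tumours, against 6.81, 6.95 and 8.0002 in Col3a1-low tumours, so the groups overlapped. As a slope over all 32 tumours neither Adipoq nor Car3 passed limma's test (adjusted p = 0.199 and 0.126). In the tumours between the groups all 14 fat cell genes had a positive slope on Col3a1, with a median of 0.94. The median slope there was 0.36 for the fibrillar and fibril-associated collagens and 0.45 for the elastic fibre and matrix glycoproteins. These medians carry no test. The part of fat tissue in the matrix genes was not tested.

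Salivary gland RNA was present in some tumours of both groups. Bpifa2, a protein of saliva, formed an upper cluster of 11 tumours, from 12.97 upward, and a lower cluster of 21, up to 5.19. The upper cluster held 3 Col3a1-high tumours (25, 30 and 4) and 4 Col3a1-low tumours (12, 9, 15 and 18; Fisher's exact test, two-sided p = 1, adjusted p = 1 over 3 tests of single values). Of 15 salivary gland genes 0 were called (median -0.76), and the list's mean level ran from 5.32 to 10.80 in Col3a1-high tumours and from 5.06 to 12.42 in Col3a1-low tumours. With the cluster as a covariate 70 genes were higher and 28 lower. In the 5 Col3a1-high and 4 Col3a1-low tumours outside it 12 were higher and 3 lower, 9 and 2 of them among the 60 and 26.

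Neither an Xist count nor a measure of RNA quality passed its test between the groups. Xist, the RNA of the inactive X chromosome, stood in its upper cluster in 2 of 8 Col3a1-high and 4 of 8 Col3a1-low tumours (Fisher's exact test, two-sided p = 0.608, adjusted p = 0.913). Control transcripts, read at both ends to gauge RNA degradation, had a 3′ end brighter than the 5′ end by an average of 0.39 ± 0.06 in Col3a1-high and 0.47 ± 0.23 in Col3a1-low tumours (SD, n = 8 each; exact permutation test, two-sided p = 0.48, adjusted p = 0.913).

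Macrophage genes included higher members. Of 15 tested, 2 were higher and 0 lower, with a median of 0.45. Mrc1, the mannose receptor of tissue macrophages, ran from 8.51 over 8.94 to 10.35 in Col3a1-high tumours and from 5.27 over 6.89 to 8.48 in Col3a1-low tumours, a 4.92-fold difference (2.298 ± 0.45, SE, adjusted p = 0.0235) without overlap. Adgre1, the F4/80 antigen, was 8.14, 8.33 and 9.75 in Col3a1-high tumours and 5.70, 6.74 and 8.20 in Col3a1-low tumours (1.68 ± 0.33, SE, adjusted p = 0.0235), 6 Col3a1-high tumours lying above all of the others. Folr2, a folate receptor of resident macrophages, lay just outside (1.10, adjusted p = 0.0523). Timd4 and Marco, receptors of macrophages that clear cells and particles in lymphoid organs, had negative differences (-1.40, adjusted p = 0.168, and -1.21, adjusted p = 0.477). Timd4 passed limma's test as lower between the 5 highest and 5 lowest tumours (-2.41, adjusted p = 0.00706). Neither Mrc1 nor Adgre1 passed without tumour 8 (adjusted p = 0.0631 and 0.0569), and Mrc1 did not without tumour 15 (adjusted p = 0.0538).

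Further genes of myeloid cells were among the 60, named after their values were seen: C3ar1, a receptor of complement (1.21 ± 0.23, SE, adjusted p = 0.0197, no overlap), the inhibitory antibody receptor gene Fcgr2b, which B cells also express (1.26 ± 0.26, adjusted p = 0.0335), and the lectin gene Clec10a (1.03 ± 0.21, adjusted p = 0.0283). Fcgr2b kept its call in 6 and Clec10a in 10 of the 16 fits without 1 tumour. The neutrophil list had 0 of 8 called and a median of 0.92, with S100a9 at 1.58 (adjusted p = 0.458) and S100a8 at 1.38 (adjusted p = 0.499), both calcium-binding proteins of neutrophils. Dendritic cell genes had 0 of 6 called, all with a negative difference (median -0.16), the integrin gene Itgax at -1.14 (adjusted p = 0.165). T cell genes had 0 of 6 called (median -0.56). Cd3d, a chain of the T cell receptor complex, reached 10.67 in the Col3a1-low group, against at most 8.06 in the Col3a1-high group (-0.87, adjusted p = 0.649).

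Some of the higher genes with the largest differences or moderated t are in none of these lists, and which cells made their RNA was not tested. Socs2, an inhibitor of cytokine signalling, ran from 8.85 over 10.60 to 11.09 in Col3a1-high tumours and from 5.65 over 7.42 to 9.51 in Col3a1-low tumours (2.82 ± 0.56, SE, adjusted p = 0.0235). Islr2, a membrane protein known from neurons, differed by 1.93 ± 0.40 (adjusted p = 0.0332). The call was kept in 10 of the 16 fits without 1 tumour for Socs2 and in 5 for Islr2. Lmtk2, a membrane-anchored kinase, was 9.09, 9.95 and 10.10 in Col3a1-high tumours and 8.29, 8.59 and 9.12 in Col3a1-low tumours, with a single tumour, 30, reaching into the lower range (1.20 ± 0.15, adjusted p = 0.00109). The lysosomal transporter gene Slc49a4 (1.27 ± 0.17, adjusted p = 0.0026), the phospholipase gene Pla1a (1.49 ± 0.22, adjusted p = 0.00341) and the adhesion receptor gene Adgrd1 (0.78 ± 0.12, adjusted p = 0.00341) had no overlap between the groups.

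**Figure D3:**
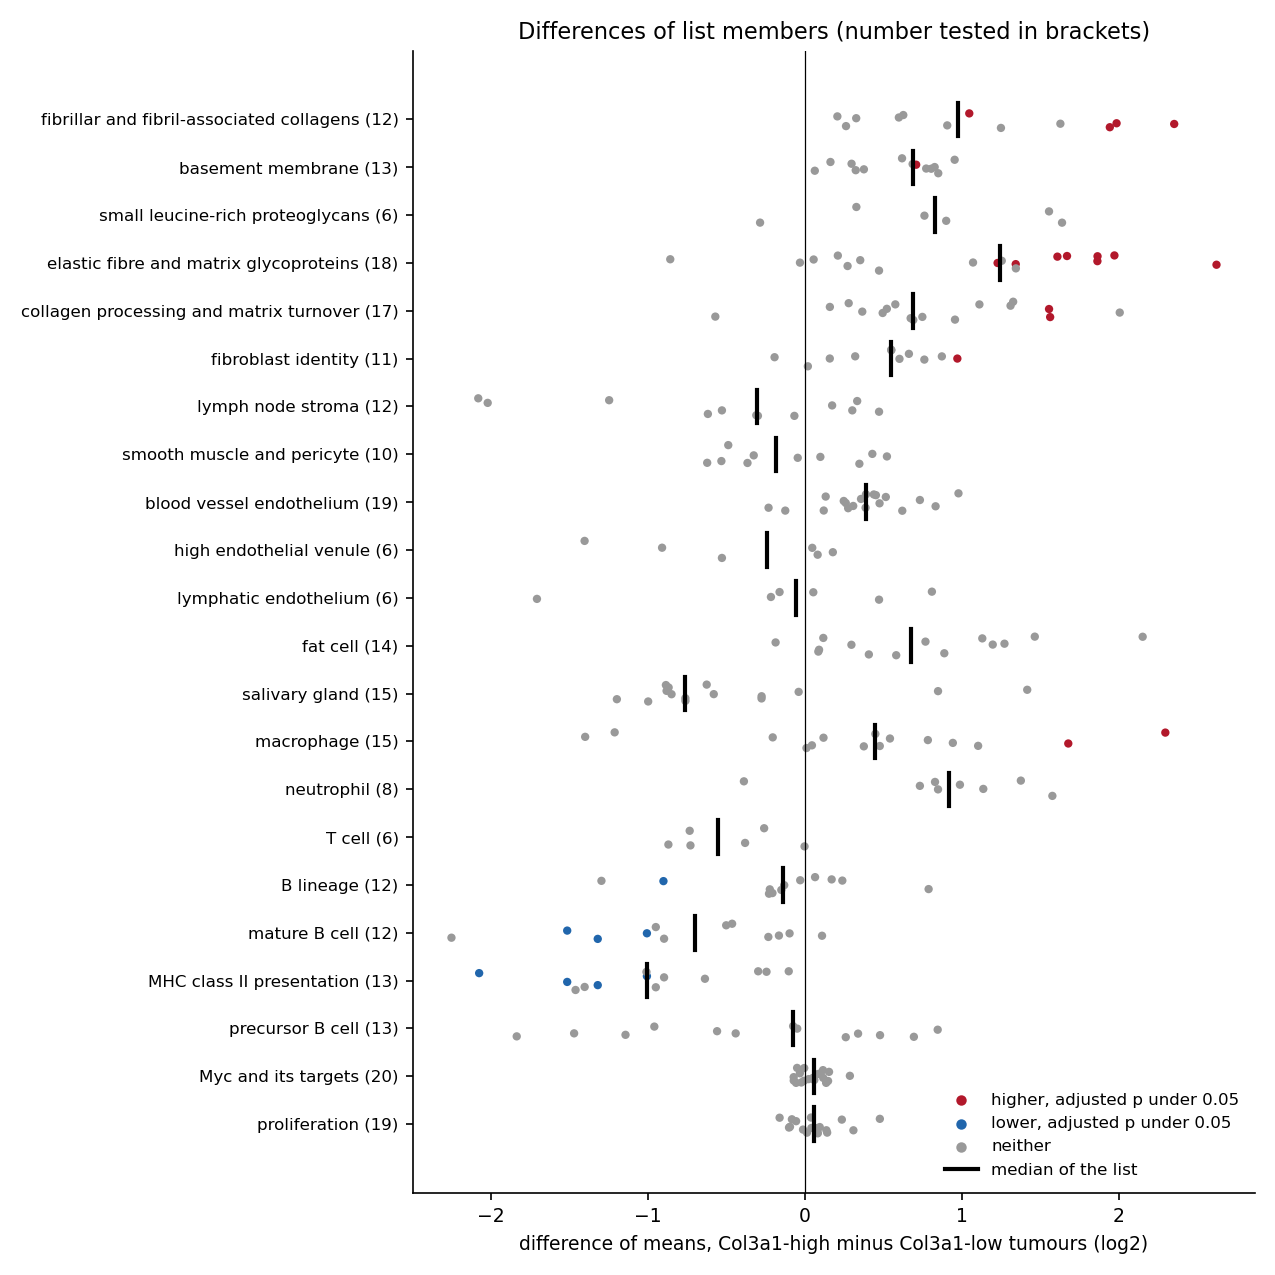
Difference of means between Col3a1-high and Col3a1-low tumours (horizontal axis, log2, positive where higher in Col3a1-high) for the tested members of 22 gene lists (rows, number tested in brackets), with members higher in red, lower in blue and neither in grey, and the list median as a black bar. Red points are in the collagen, basement membrane, glycoprotein, matrix turnover, fibroblast and macrophage rows, and blue points in the B lineage, mature B cell and MHC class II rows, the last of which was assembled after values were seen.

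Among the lower genes with the largest differences were regulators of transcription and of the ERK pathway. The transcription factor gene Hivep3 ran from 3.59 over 5.06 to 7.75 in Col3a1-high tumours and from 7.35 over 9.01 to 9.95 in Col3a1-low tumours, with 7 of 8 Col3a1-high tumours below all of the Col3a1-low tumours. The difference was -3.69 ± 0.53 (SE, adjusted p = 0.00331), with the median of the Col3a1-high tumours under the dim level of 5.78. Etv5, an ETS transcription factor switched on by the ERK pathway, was 4.62, 5.18 and 6.64 in Col3a1-high tumours and 6.61, 8.71 and 10.19 in Col3a1-low tumours (-3.26 ± 0.49, adjusted p = 0.00364). Its median in the Col3a1-high tumours was under the dim level as well. Spred1, an inhibitor of the step from Ras to ERK, was 5.94, 7.09 and 8.45 against 7.98, 8.73 and 9.75 (-1.83 ± 0.34, adjusted p = 0.0187). In each of the 3 genes 7 of 8 Col3a1-high tumours lay below the lowest Col3a1-low tumour.

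A list of 9 genes that the ERK pathway induces as feedback was put together after these values were seen, so its count describes and tests nothing. In it 2 were lower (Etv5 and Spred1) and 0 higher, and 8 of 9 differences were negative, with a median of -1.39. The phosphatase genes Dusp6 (-1.82, adjusted p = 0.141) and Dusp4 (-1.73, adjusted p = 0.111) did not pass in the comparison of 8 with 8 tumours. Both passed limma's test as a falling slope over all 32 tumours (adjusted p = 0.0103 and 0.000437). Dusp4 also passed between the 5 highest and 5 lowest tumours (-2.74, adjusted p = 0.00231). Egr1, an immediate early gene from the early stress list, of which 0 of 9 were called (median -0.10), had a difference of -1.53 (adjusted p = 0.211).

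Genes of MHC class II, the molecules with which B cells and macrophages show peptides to T cells, were lower in part. Ciita, the coactivator on which class II transcription depends, was 6.41, 6.98 and 7.45 in Col3a1-high tumours and 7.51, 8.59 and 9.39 in Col3a1-low tumours, without overlap (-1.52 ± 0.31, SE, adjusted p = 0.0332). H2-DMb2, a chain of the protein that loads peptides, was 7.63, 8.78 and 9.60 against 9.45, 10.88 and 11.89 in Col3a1-low tumours (-2.08 ± 0.34, a 4.22-fold lower level, adjusted p = 0.00632). The chains that hold the peptide were lower too, H2-Eb1 at 9.59, 10.60 and 11.43 against 11.10, 11.83 and 12.72 in Col3a1-low tumours (-1.32 ± 0.29, adjusted p = 0.0411) and H2-Ab1 at 10.47, 10.92 and 11.33 against 11.21, 11.87 and 12.60 (-1.01 ± 0.19, adjusted p = 0.0197). In H2-DMb2, H2-Eb1 and H2-Ab1, 7 of the 8 Col3a1-high tumours lay below every Col3a1-low tumour.

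These 4 were the called genes among 13 tested genes of class II presentation, a list assembled after values were seen. All 13 differences were negative, with a median of -1.01. H2-Ob (-1.40, adjusted p = 0.0523), H2-DMa (-1.46, adjusted p = 0.0531) and H2-Aa (-0.90, adjusted p = 0.0731) lay just outside the threshold. Of the 9 with a promoter window, 8 held CCAAT on either strand (88.9%, against 42.6% of the tested genes with a window), among them H2-Eb1 and H2-DMb2 shown above. This share carries no test. Without tumour 8 H2-Ab1 did not pass (adjusted p = 0.0532), Ciita kept its call in 7 of the 16 fits without 1 tumour and H2-Eb1 in 4, while H2-DMb2 kept it in all 16. Macrophages and dendritic cells express class II genes as well, and the macrophage list's mean level ran from 8.55 to 10.43 in Col3a1-high and from 8.09 to 9.28 in Col3a1-low tumours; the part of these cells was not tested.

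**Figure D4:**
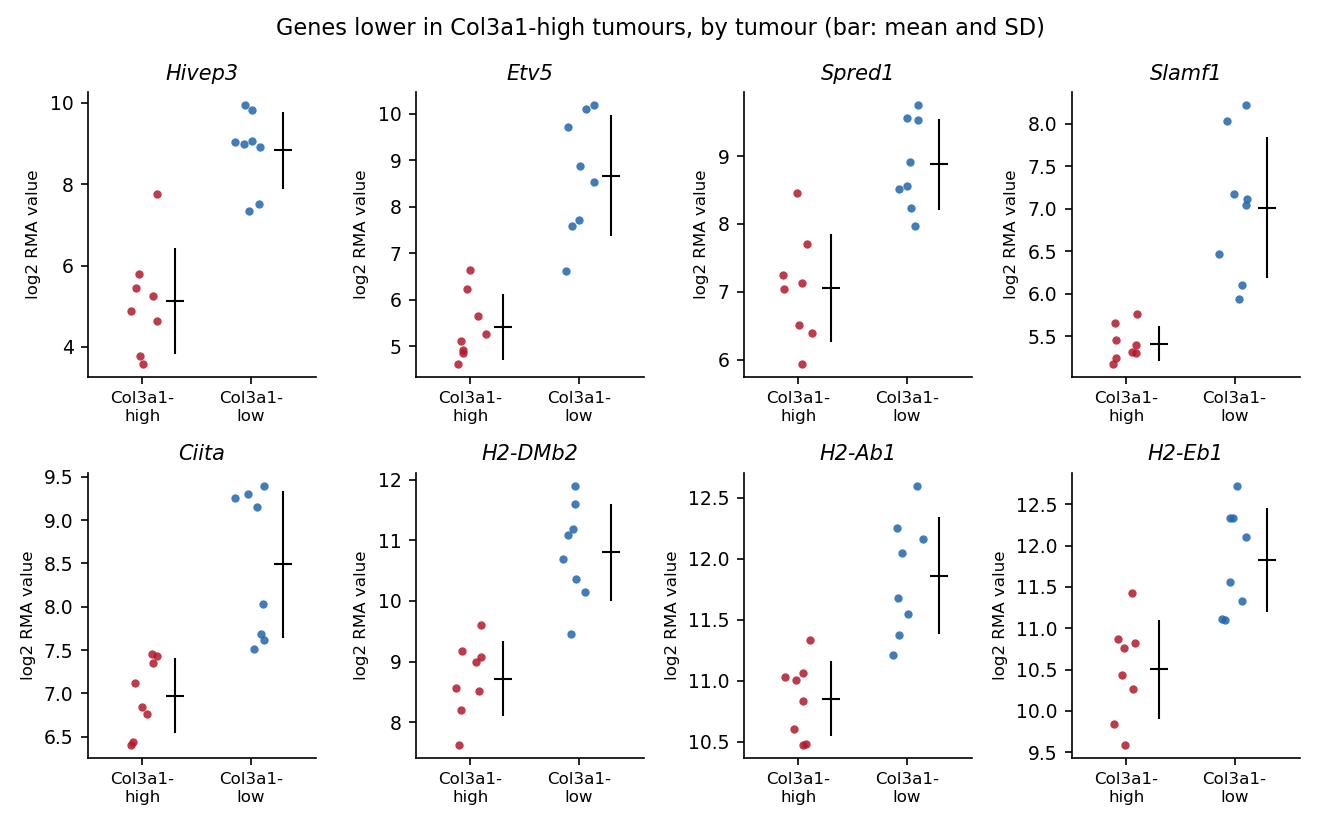
Log2 RMA values (vertical axis, not starting at 0) of 8 genes that were lower in Col3a1-high tumours (red, left) than in Col3a1-low tumours (blue, right), 1 point a tumour, with the mean and SD of each group of 8 as a black bar. Slamf1 and Ciita have no overlap between the groups, and in the other 6 genes 7 of 8 Col3a1-high tumours lie below the lowest Col3a1-low tumour.

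Of the lists for lymphoma cells, the B lineage and mature B cell lists held called genes, all lower, against 0.232% lower among all tested genes. The B lineage list, which checks the labelled tissue, had a mean level between 10.32 and 11.14 in Col3a1-high tumours and between 10.28 and 11.29 in Col3a1-low tumours. Of its 12 tested genes 0 were higher and 1 lower (median -0.14). Cd22, an inhibitory receptor of B cells, was 10.17, 10.90 and 11.49 in Col3a1-high tumours and 11.35, 11.79 and 12.29 in Col3a1-low tumours (-0.90 ± 0.19, SE, adjusted p = 0.0332), a call kept in 8 of the 16 fits without 1 tumour. With the mean of its probe sets Cd22 did not pass limma's test (-0.94, adjusted p = 0.0565). The kinase gene Blk did not pass (-1.30, adjusted p = 0.287). In the mature B cell list 3 of 12 were lower, the class II genes Ciita, H2-Eb1 and H2-Ab1, and 0 higher (median -0.70). Of these 12 differences 11 were negative. Fcmr, the receptor of immunoglobulin M, ran from 4.25 over 6.40 to 8.08 in Col3a1-high tumours and from 5.71 over 8.40 to 11.09 in Col3a1-low tumours and did not pass (-2.25 ± 0.74, adjusted p = 0.188).

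Precursor B cell genes had 0 of 13 called (median -0.08). The recombinase gene Rag1 ran from 3.38 to 12.02 in Col3a1-high and from 3.40 to 11.95 in Col3a1-low tumours (-1.47 ± 1.503, SE, adjusted p = 0.782), and the transcription factor gene Lef1 had a difference of -1.84 (adjusted p = 0.328). Germinal centre and plasma cell lists had 0 of 4 and 0 of 6 called (medians -0.29 and -0.17). Myc was 10.90, 11.26 and 12.20 in Col3a1-high tumours and 9.81, 11.23 and 11.88 in Col3a1-low tumours (0.29 ± 0.28, SE, adjusted p = 0.765). Of Myc and its targets 0 of 20 were called (median 0.06), of the proliferation list 0 of 19 (median 0.06), of the p53 pathway 0 of 10 (median -0.21) and of the Bcl2 family 0 of 10 (median -0.0045). Cdkn2a, which encodes p16Ink4a and p19Arf, was at most 6.10 in Col3a1-high tumours and reached 10.72 in Col3a1-low tumours, with a difference that did not pass (-1.60, adjusted p = 0.328).

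Other lower genes belong to none of the lists. Slamf1, a receptor of lymphocytes that binds itself, was 5.18, 5.36 and 5.77 in Col3a1-high tumours and 5.94, 7.08 and 8.22 in Col3a1-low tumours, without overlap (-1.60 ± 0.28, SE, adjusted p = 0.0133). All Col3a1-high values of Slamf1 lay under the dim level of 5.78. Rogdi, whose loss causes a seizure syndrome in humans, was 7.69, 7.87 and 8.13 against 8.22, 8.65 and 8.89 (-0.69 ± 0.10, adjusted p = 0.00272), also without overlap. Srpk3, a kinase of splicing factors (-1.48 ± 0.26, adjusted p = 0.0131), Asb2, a subunit of a ubiquitin ligase (-1.43 ± 0.26, adjusted p = 0.0163), and the ubiquitin ligase gene Cbl (-0.34 ± 0.07, adjusted p = 0.0235) had no overlap. Pde4dip, a protein of the centrosome and Golgi (-1.48, adjusted p = 0.0179), Psrc1, which acts at the mitotic spindle (-1.13, adjusted p = 0.0197), Btla, an inhibitory receptor of lymphocytes named after its value was seen (-1.31, adjusted p = 0.0378), the corepressor gene Tle4 (-0.43, adjusted p = 0.0242) and the interferon-inducible gene Ifi213 (-2.05, adjusted p = 0.045) overlapped. Of the 16 fits without 1 tumour the call held in 11 for Cbl, 10 for Tle4, 7 for Btla and 3 for Ifi213.

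The remaining lists held no called gene in limma's test. Counts were 0 of 9 for interferon-induced genes (median -0.04), 0 of 8 for NF-kB (median -0.48), 0 of 11 for oxidative phosphorylation (median 0.13), 0 of 9 for glycolysis (median -0.06), 0 of 7 for hypoxia (median -0.15), 0 of 21 for TGF-beta and growth factor signalling (median 0.05), 0 of 10 for complement (median 0.15) and 0 of 8 for reference genes (median 0.02). Lists of tissues that a dissection can carry along gave 0 of 4 for epithelium (median -0.03), 0 of 7 for skeletal muscle (median 0.30), 0 of 4 for nerve (median -0.05) and 0 of 3 for pancreas (median -0.02). Among immune cells the counts were 0 of 4 for NK cells (median -0.32) and 0 of 1 for mast cells. No erythroid gene passed the filter on dim probe sets. Over all 11227 genes, 768 were higher and 559 lower at an unadjusted p under 0.05.

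The 16 tumours between the groups had no part in the choice of the extremes, and Col3a1 ran only from 11.07 to 12.51 in them. No gene followed Col3a1 there at an adjusted p under 0.05 in limma's fit, with 0 of 11227 rising (0%) and 0 falling (0%), against 410 and 298 at an unadjusted p under 0.05. With repeated quantile normalization or the Bpifa2 cluster as a covariate 2 genes rose, and with the stricter filter 1. Of the 60 higher genes, 56 had a positive slope in these 16 tumours (93.3%, against 51.8% of all tested genes), and 35 did so at an unadjusted p under 0.05. Of the 26 lower genes 24 had a negative slope (92.3%, against 48.2% of all), 6 of them at an unadjusted p under 0.05. Genes are not independent replicates, and these counts carry no test.

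Slopes of the leading genes in the tumours between are given with their errors. Per log2 unit of Col3a1, the slope was 1.63 ± 0.42 for Sfrp2 (SE, n = 16 tumours), 1.16 ± 0.25 for Mfap5, 1.13 ± 0.25 for Mrc1, 0.93 ± 0.29 for Col1a1 and 0.83 ± 0.15 for Fbln2. For Etv5 the slope was -1.80 ± 0.72, for Hivep3 -1.75 ± 0.82 and for Spred1 -1.24 ± 0.57. The slopes of the class II genes were negative with wide errors, -0.86 ± 0.57 for H2-DMb2, -0.78 ± 0.39 for Ciita and -0.80 ± 0.48 for H2-Eb1. Fcgr2b was among the 4 higher genes that ran the other way (-0.35 ± 0.32). Lum had a slope of 0.49 ± 0.44. Of the 15 macrophage genes only 5 had a positive slope in these tumours, with a median of -0.19, so Mrc1 does not stand for its list. Of the 8 neutrophil genes 0 had a positive slope (median -0.32), against a median difference of 0.92 between the groups. In the smooth muscle and pericyte list 9 of 10 slopes were positive, and in the B lineage list 10 of 12. The median differences of both lists between the groups were negative (-0.19 and -0.14). These counts carry no test.

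**Figure D5:**
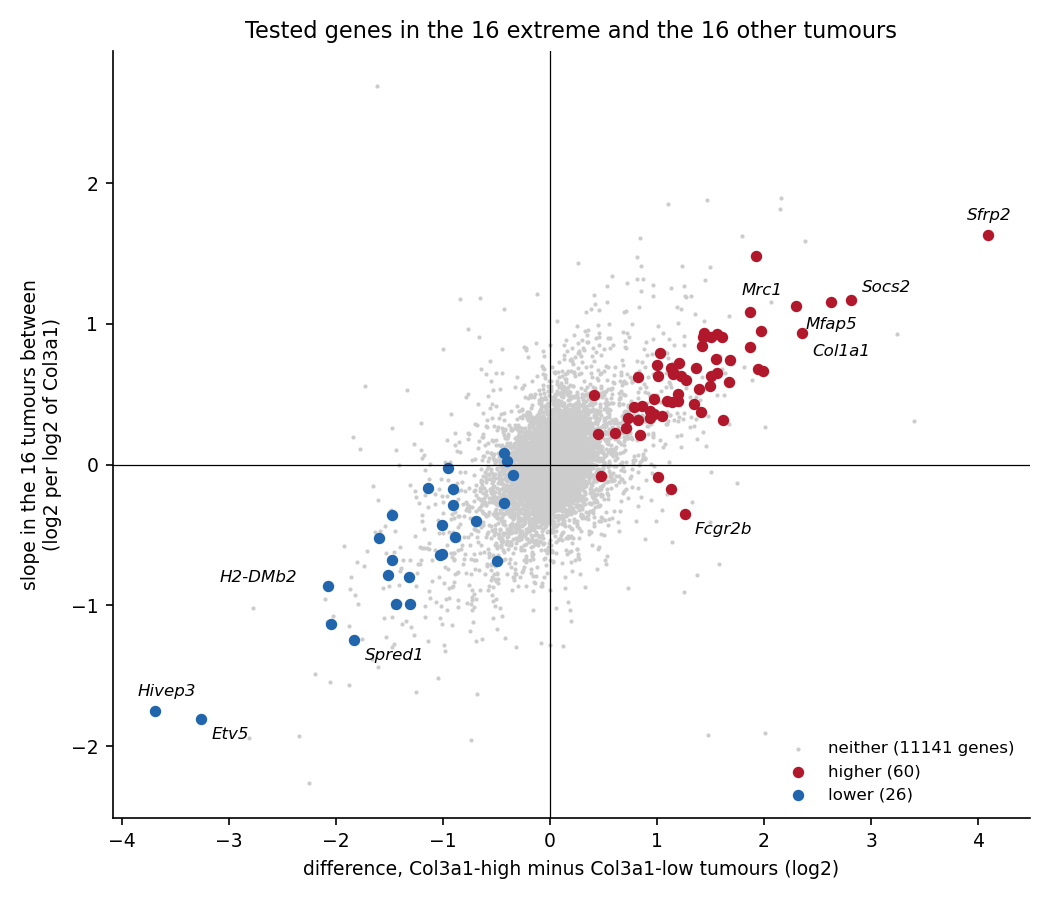
Each point is a tested gene, with the difference between Col3a1-high and Col3a1-low tumours on the horizontal axis (log2) and its slope on Col3a1 in the 16 tumours between on the vertical axis (log2 per log2), the 60 higher genes in red, the 26 lower in blue and the rest in grey. Of the red points 56 lie above the horizontal zero line and of the blue points 24 below it.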

How the data were processed

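For 32 lymphomas the authors deposited log2 values per probe set. RMA and affy are named for them, per the submitters' processing notes, without versions. RMA gives arrays like distributions, so a change of most genes at once cannot be seen. Each column matched a tumour's label (0 left over), and 0 pairs of arrays held identical values. GEO's platform annotation gave 1 symbol to 34958 of 45101 probe sets, several to 932 and none to 9211; Entrez identifiers of 34754 were found in RefSeq (GRCm38.p6), changing 0 symbols. Probe sets with a mean of at least 5.78, the median of all probe set means, were kept, and the highest-mean probe set stood for a gene, leaving 11227 genes.

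Tumours were ranked by the brighter Col3a1 probe set. The 8 highest were compared with the 8 lowest in limma 3.58.1 (lmFit, eBayes; R 4.3.3), with Benjamini-Hochberg adjustment over all tested genes, and slopes on Col3a1 were fitted in the other 16 tumours. P-values measure the spread between tumours and are too small if tumours share a mouse. Exact permutation and Fisher tests used scipy 1.17.1; other steps used Python 3.11.15, numpy 2.4.6, pandas 2.3.3 and matplotlib 3.10.9. Steps were tested on simulated data.

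The tumours, the 43 gene lists and the tests were chosen with earlier results of these data known, and 2 further lists (class II presentation, ERK feedback) after the values were seen. Named genes were taken from the 15 higher and 15 lower with the largest moderated t and the 10 with the largest difference in each direction. They were also taken from the matrix, vessel, gland and fat lists, and from the up to 5 largest and 2 smallest members of the other lists. Not every gene that qualified is named. Other genes of the 2 further lists, Btla, C3ar1, Fcgr2b and Clec10a were named after their values were seen. List members without a single-symbol probe set are not analysed here. Alternatives were the mean of probe sets, no filter or the 75th percentile, 2 other scalings, covariates, other rankings and group sizes, and each tumour left out.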

Additional observations from a re-analysis of the deposited data

Results flagged for a closer look

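Within each group of 8 tumours, 1 tumour stood apart from the other 7 in 11 of 190 groups checked (95 genes in 2 groups), by a gap over the group's range above Dixon's critical value. Chance flags about 1 in 20 groups. In the Col3a1-high group tumour 25 was highest in Lum (10.68, with 8.64 next) and lowest in Vim (11.43, with 12.29 next). Tumour 30 of that group was highest in Adgre1 (9.75, with 8.79 next) and C3ar1 (8.39, with 7.24 next) and lowest in Lmtk2 (9.09, with 9.75 next). In the Col3a1-low group tumour 2 was highest in Dcn (11.81, with 10.32 next) and Mmp3 (9.65, with 6.97 next). Tumour 9 was highest in Lamb2 (6.34, with 5.92 next) and Tek (6.23, with 5.74 next), tumour 23 in Islr2 (8.02, with 6.89 next), and tumour 22 was lowest in Lyve1 (3.94, with 7.38 next).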

How the results depend on the processing

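The 60 higher and 26 lower genes kept the sign of their difference in every alternative that tested them, which the reuse of the same tumours largely builds in (the ranking by Lum keeps 4 of the 8 Col3a1-high and 5 of the 8 Col3a1-low tumours), so this is no sign of stability. Higher and lower counts were 19 and 13 with the filter at the 75th percentile, which left 21 of the 60 and 14 of the 26 to test, 12 and 3 without tumours of high Bpifa2, which leaves 5 and 4 tumours, 13 and 1 when ranked by Lum, and 261 and 163 as a slope over all 32 tumours. Lower genes numbered 43 with arrays shifted by the reference genes, 43 with repeated quantile normalization and 55 with the 5 highest and 5 lowest tumours, which gave 40 higher. Leaving out 1 tumour at a time gave 34 to 109 higher and 10 to 78 lower genes. In the 16 tumours between, 1 gene rose with the stricter filter, and 2 with quantile normalization and 2 with the Bpifa2 covariate. Beyond the smaller numbers of genes and tumours given, the cause was not tested. Among genes near the threshold, Col6a3, Lamb2, Ogn, Tek, Stab1, Fabp4, Cd36, Folr2, H2-DMa and H2-Ob, not called between the groups, passed in the slope over all 32 tumours and in at least 1 other alternative. Of these, H2-DMa and H2-Ob fell with Col3a1 and the rest rose. Lum, Emcn, Lox, Col8a1 and Col15a1 passed in that slope as rising, and Clu, Mfge8, Timd4, Dusp4 and Dusp6 as falling. Col8a1 also passed with the mean of probe sets and Col15a1 with high Xist as a covariate. Clu, Mfge8, Timd4 and Dusp4 also passed as lower with the 5 highest and 5 lowest tumours. Among the called genes named here, Ifi213, Dpt, Islr2, Fcgr2b and Col18a1 lost their call with a covariate or another scaling. With the mean of probe sets Cd22 and Cbl lost it, and without the filter H2-Eb1, Btla, Dpt and Ifi213 did. Ranked by the mean of the Col3a1 probe sets, Pde4dip, Psrc1, Fcgr2b and Col18a1 lost it. With the 5 highest and 5 lowest tumours 26 of the 60 higher and 11 of the 26 lower genes kept their call. Of all 60 higher and 26 lower genes, 50 and 20 kept their call with high Xist as a covariate. The Bpifa2 covariate kept 57 and 24, and the measure of RNA degradation 59 and 23. Arrays shifted by the reference genes kept 49 and 26, and repeated quantile normalization 59 and 26. Ranked by Lum, Dcn passed (1.76), and Clu, Mfge8, Glycam1, Lyve1, Marco, Cd3d, Myc and Egr1, none of them called, turned sign. The ranking by Lum shared 3 of the 60 and 0 of the 26 calls. No paired analysis was possible because the labels give 1 group of tumours. Signal over background was not analysed here and limits what dim genes can show.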
